A study of Mus musculus with 4 samples.

Results

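Nuclear genes of the mitochondrial respiratory chain were followed in immune cells sorted from mouse mammary tumours. The genes were chosen by name alone, as every gene column that names a subunit of complexes I to V. The rule took 51 of the 11407 genes of the expression tables, with 4 genes of complex II, 10 of complex III, 16 of complex IV and 21 of complex V, the ATP synthase. It took 0 genes of complex I, whose nuclear subunits are therefore not analysed here. Of the 51 genes, 7 are annotated as processed pseudogenes (Cox6c2, Uqcrh-ps1, Uqcrh-ps2, Atp5c1-ps, Atp5k-ps2, Atp5l2-ps and Atp5pb-ps), copies of spliced transcripts inserted elsewhere in the genome, and the other 44 are subunit genes.

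The first group of mice received an intratumoral injection of IL-12 plasmid, which encodes interleukin 12, a cytokine that drives T cells towards interferon-gamma production. The second group received control plasmid in the same way, and electroporation followed in both. Live CD45+ cells, CD45 being a surface protein of nearly all leukocytes, were sorted from the tumours of 3 pooled mice per treatment, and each pool gave 1 library read from transcript 5′ ends. Which tumour was used is not settled by the labels: triple-negative tumours stand in the title, 4T1, a mouse mammary carcinoma line, stands in the deposited library names, and HER2 induced in the mammary gland of young mice stands in the growth protocol. The IL-12 library held 12979 cells with 59956933 unique molecular identifiers (UMIs, counted transcripts), and the control library held 4232 cells with 17306854 UMIs. Median depth was 3418 UMIs per cell in the IL-12 library and 3021 in the control library, and 87 cell barcodes occurred in both libraries. With 1 library per treatment no difference between treatments has a replicate check, so no test was made and each value describes these pools.

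The respiratory chain passes electrons taken from food along complexes of the inner mitochondrial membrane, pumps protons on the way, and lets the ATP synthase use the proton gradient to make ATP. Complex II takes electrons from succinate, complex III hands them to cytochrome c, and complex IV passes them to oxygen. Most subunits are made from nuclear genes, while the core proton-pumping subunits are made inside the mitochondrion from its own small genome. Activated T cells and many macrophages rely on this chain, whereas mature neutrophils hold few mitochondria and live largely by glycolysis.

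A level is the number of UMIs of a gene, added up over a population's cells, per 1000000 of all their UMIs (CPM). A UMI counts 1 transcript whatever its length, so levels were not divided by length. Levels of different genes compare only roughly, since genes differ in how much of their sequence also occurs in other genes. Brackets give exact 95% intervals, which cover counting error only, not differences between mice or preparations. Cell classes are those of the authors. The class called CD8 T cells joins clusters 5, 8 and 12 almost wholly, and its markers Cd8a and Cd8b1 summed to 1781 CPM in the IL-12 library and 1139 CPM in the control library. Cluster 8 had 1 marker of regulatory T cells (Ikzf2) and 0 of CD8 T cells among its 10 leading genes, so this class is called CD8-labelled cells and is also given by cluster number. The class called CD4 T cells, almost wholly cluster 9, had Cd8a and Cd8b1 at 1019 CPM in IL-12 and 662 CPM in control, against 84.1 and 94.6 CPM for Cd4 with Cd40lg, and is called CD4-labelled cells. Cluster 13 is the class called B cells. It had 2 B cell, 2 mast cell, 1 dendritic cell and 1 epithelial marker among its 10 leading genes, and is given by number.

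The 51 genes together took 10099.7 CPM (10074.3 to 10125.2) in the IL-12 library and 7584 CPM (7543 to 7625) in the control library, a ratio of 1.33 (1.32 to 1.34). Complex IV made up 43.0% of this sum in IL-12 and 43.3% in control, complex V 40.1% and 40.3%, complex III 14.4% and 13.8%, and complex II 2.49% and 2.61%. The make-up by complex was thus close in the 2 libraries, while the sum was higher in IL-12. The libraries also differed in their mix of cells: neutrophils, which had the lowest levels, were 5908 of 12979 cells in IL-12 and 2721 of 4232 cells in control. With each class weighted by its share in the control library, the log2 ratio of the sum was 0.18 in place of 0.41. From a value over all sorted cells alone, fewer cells of a type and less RNA per cell cannot be told apart, so values by class are given below.

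**Figure D1:**
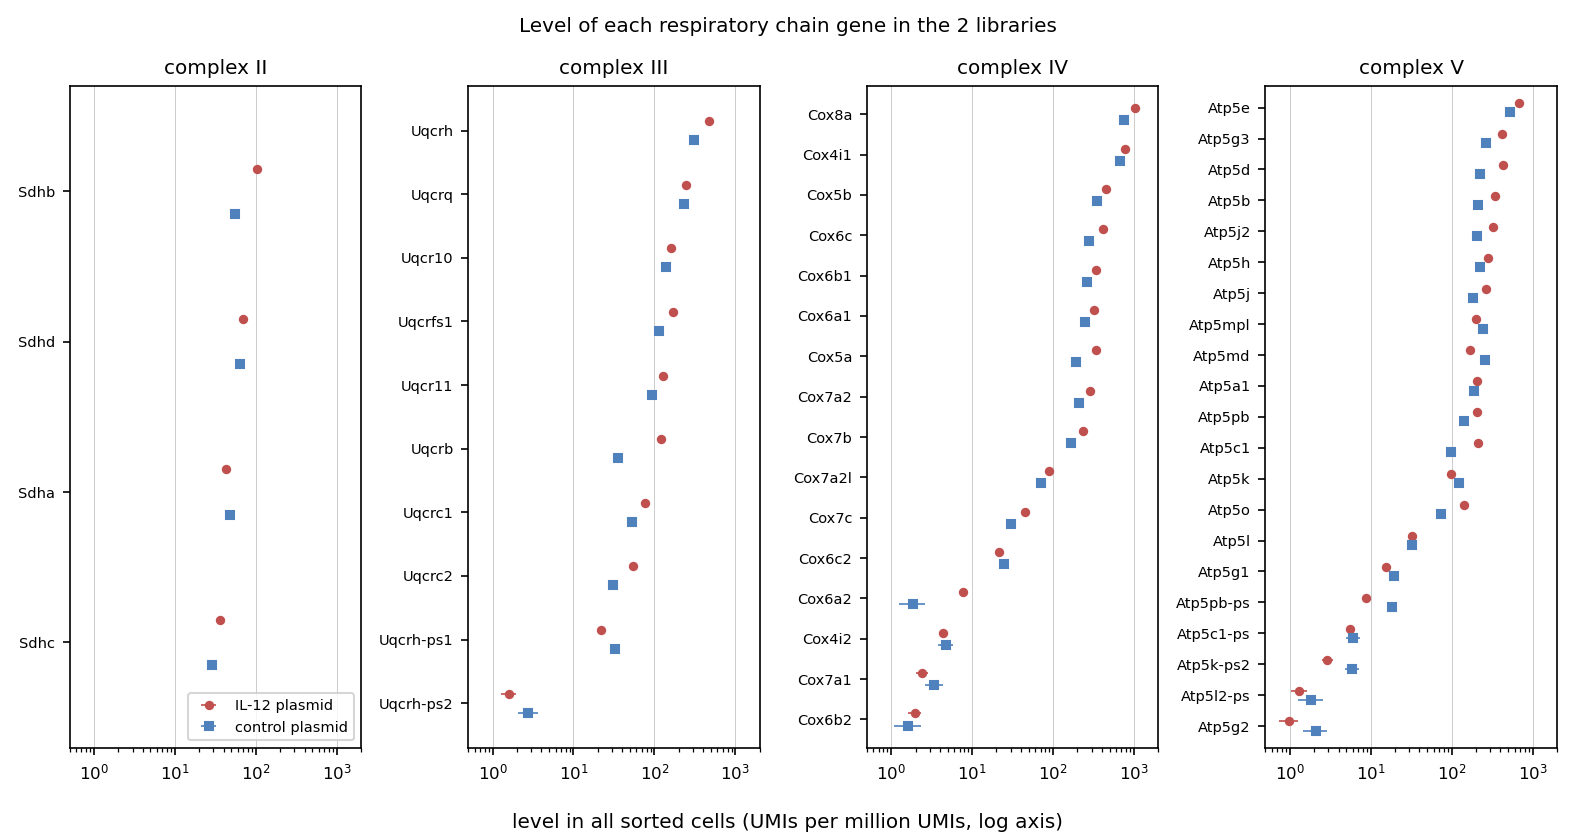
Level of each of the 51 genes in all sorted cells, in CPM on a log axis, with 1 panel per complex. Circles are the IL-12 library, squares are the control library, and lines are exact 95% intervals; Cox8a had the highest level in both libraries (1028 CPM in IL-12 and 759 CPM in control).

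Complex II is succinate dehydrogenase, which also serves the citric acid cycle. Its iron-sulfur subunit Sdhb (chr4:140961203-140979193, plus strand, GRCm38) had 104 CPM in IL-12 and 55.9 CPM in control, 1.86-fold higher (1.74 to 1.99). The membrane anchor Sdhd stood at 68.5 CPM in IL-12 and 64.6 CPM in control, a log2 ratio of 0.08. Sdha, the flavoprotein that holds the succinate site, had the lowest log2 ratio of the complex, -0.18, with 42.4 CPM in IL-12 and 48.2 CPM in control. The subunits that sit side by side in the matrix arm, Sdhb and Sdha, thus stood on opposite sides of 0.

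In complex III, Uqcrh, the hinge subunit near cytochrome c1, was the most abundant gene, with 475 CPM in IL-12 and 311 CPM in control. Uqcrq, a small membrane subunit, followed with 248.6 CPM in IL-12 and 234 CPM in control, a log2 ratio of 0.09. Uqcrb (chr13:66900617-66905378, minus strand, GRCm38), a small subunit that binds cytochrome b, had the highest log2 ratio of all measured members, 1.74. It had 122 CPM in the IL-12 library and 35.8 CPM in the control library, 3.40-fold higher (3.14 to 3.70). A Uqcrb UMI was found in 65.1% of IL-12 and 23.9% of control CD8-labelled cells, and in 7.14% and 3.34% of neutrophils, which are shallower. Of its 60-base stretches of transcript, 21.9% also occur in another gene, mostly Gm16089, so its value is uncertain where reads were split between them. The core proteins Uqcrc2 and Uqcrc1 stood at 0.79 and 0.50 on the log2 scale, the iron-sulfur protein Uqcrfs1 at 0.57, and the small subunits Uqcr11 and Uqcr10 at 0.42 and 0.18. All 8 subunit genes of the complex were thus above 0 in all sorted cells, beside 44.1% of all measured genes. In macrophages 5 of 8 were above 0, beside 41.5% of all measured genes, and in neutrophils 1 of 6 measured, beside 29.9%. The pseudogene Uqcrh-ps1 was the lowest measured member of complex III in all sorted cells, at -0.54.

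Complex IV, cytochrome c oxidase, held the most abundant members. Cox8a (chr19:7215153-7217616, minus strand, GRCm38), a small subunit, had 1028 CPM in IL-12 and 759 CPM in control, a log2 ratio of 0.44. Cox4i1, a subunit that takes part in the control of the enzyme by ATP, had 765 CPM in IL-12 and 679 CPM in control, 0.17 on the log2 scale. Cox5a, a matrix-side subunit, had the highest log2 ratio among the measured genes of the complex, 0.81, with 336 CPM in IL-12 and 191 CPM in control. The lowest of the measured genes was Cox6c2, a processed copy of Cox6c, at -0.21, with 21.6 CPM in IL-12 and 25.1 CPM in control. The other 8 measured subunit genes of the complex stood between 0.31 (Cox7a2l) and 0.56 (Cox6c). All 11 were thus above 0 in all sorted cells, beside 44.1% of all measured genes, and 1, Cox5a, passed the fold used below. In macrophages 8 of 12 measured subunit genes were above 0, beside 41.5% of all measured genes, and in neutrophils 4 of 10, beside 29.9%.

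In complex V the genes of the catalytic head, the stalks and the membrane part had different ratios. Head genes were Atp5b and Atp5a1 (subunits beta and alpha), with log2 ratios of 0.69 and 0.11. Central stalk genes were Atp5c1, Atp5d and Atp5e (subunits gamma, delta and epsilon), with log2 ratios of 1.07, 0.96 and 0.36. Atp5c1 (chr2:10056016-10080510, minus strand, GRCm38) had 210 CPM in IL-12 and 99.5 CPM in control, 2.11-fold higher (2.01 to 2.22). Atp5e was the most abundant, with 672 CPM in IL-12 and 525 CPM in control. Genes of the side stalk, Atp5o, Atp5j, Atp5pb and Atp5h, stood between 0.96 and 0.32, and Atp5g3, a gene for the rotating membrane ring, at 0.69 with 424 CPM in IL-12 and 262 CPM in control. The lowest ratios of measured subunit genes lay in the membrane part, with Atp5md at -0.62, Atp5g1 at -0.31, Atp5k at -0.30 and Atp5mpl at -0.27. Atp5md (chr19:47083464-47090647, minus strand, GRCm38), a small subunit linked in other work to dimers of the enzyme, had 169 CPM in IL-12 and 260 CPM in control, 1.54-fold lower (1.49 to 1.59). Every head, central stalk and side stalk gene was thus above 0 in all sorted cells, beside 44.1% of all measured genes. The membrane subunits were mixed, since Atp5j2 stood at 0.66 and Atp5l at 0.00. The head and stalk values depended on the population: of the 5 described below, Atp5a1 was above 0 in 1, and Atp5e and Atp5h in 2 each. The lowest ratio of the complex was that of a pseudogene, Atp5pb-ps, at -0.99.

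A gene counted as measured where the libraries together held 50 or more of its UMIs and where 5% or more of the cells of either one had it. It was called higher or lower past a fold of 1.5 on values with 1 CPM added. In all sorted cells 42 of 51 members were measured, and 11 were higher and 2 lower in IL-12. With control class shares 5 were higher and 4 lower, and with median-of-ratios scaling 21 were higher and 1 lower. Over all 5366 measured genes 13.7% were higher and 23.2% lower, and the median log2 ratio was -0.11, against 0.41 for the members. Without pseudogenes, 1 of 4 complex II, 3 of 8 complex III, 1 of 11 complex IV and 6 of 16 complex V genes were higher, and 1 gene, Atp5md, was lower. The members not measured there were Cox4i2, Cox6a2, Cox6b2, Cox7a1, Atp5g2 and 4 pseudogenes. All members had UMIs in both libraries.

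CD8-labelled cells, 3264 in the IL-12 library and 649 in the control library, had a summed level of 13768.5 CPM in IL-12 and 9668 CPM in control, a ratio of 1.42 (1.41 to 1.44). Of 43 measured members 17 were higher and 2 lower in IL-12, beside 11.6% higher and 36.5% lower of 6855 measured genes. The member median was 0.49, and the median of all measured genes was -0.31, so relative to that median the members stood further up. The highest ratios were those of Uqcrb (165 CPM in IL-12 and 48.9 CPM in control, log2 1.74), Uqcr11 (158 and 78.6 CPM, 0.996), a small complex III subunit, and Atp5o (215 and 110 CPM, 0.96), the ATP synthase subunit that joins stalk and head. By complex, 1 of 4 genes of complex II, 4 of 8 of complex III, 5 of 11 of complex IV and 7 of 16 of complex V were higher, pseudogenes left out. The lowest were the pseudogenes Atp5pb-ps (-0.92) and Uqcrh-ps1 (-0.80), and Sdha with 58.5 CPM in IL-12 and 80.1 CPM in control (-0.45). Median depth was 6434 UMIs per cell in IL-12 and 5794 in control, and with cells thinned to 1000 UMIs the log2 ratio of the sum was 0.57 beside 0.51.

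The CD8 label covered different clusters in the 2 libraries. Cluster 5 held 2488 IL-12 cells and 21 control cells, cluster 8 held 67 IL-12 and 572 control cells, and cluster 12 held 706 IL-12 and 54 control cells. Cluster 5 took 15092 CPM in IL-12 and 14209.5 CPM in control, 1.06-fold higher (1.02 to 1.11) with few control cells. Cluster 8 took 12891 CPM in IL-12 and 9672 CPM in control, 1.33-fold higher (1.29 to 1.38), and cluster 12 took 10073 and 7820 CPM, 1.29-fold higher (1.245 to 1.333). Within a library, cluster 5 stood 1.17-fold above cluster 8 in IL-12 and 1.47-fold above it in control. The ratio over CD8-labelled cells therefore joins a difference between clusters with differences inside them, and in each of the 3 clusters the IL-12 value was the higher. The 8 neutrophil markers summed to 10799.6 CPM in IL-12 and 7362 CPM in control over CD8-labelled cells, and the 4 regulatory T cell markers to 541 and 873 CPM; their part in the result was not tested.

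**Figure D2:**
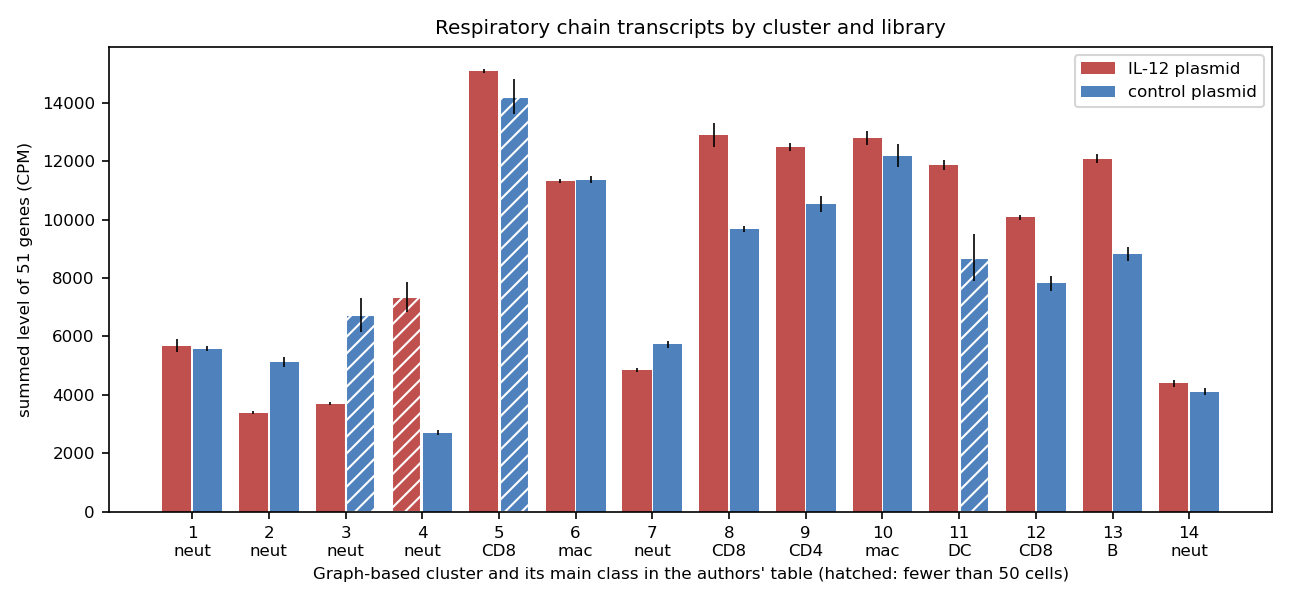
Summed level of the 51 genes in CPM (bars, from 0) for each of the 14 Graph-based clusters, with the IL-12 library left of the control library and exact 95% intervals. Hatched bars rest on fewer than 50 cells; cluster 5 had the highest level in both libraries (15092 CPM in IL-12 and 14209.5 CPM in control), and the low bars are clusters of neutrophils.

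CD8-labelled cells with a UMI of Mki67, Top2a, Ccnb1, Cdk1 or Birc5 had 14233 CPM in IL-12 and 9749 CPM in control, and cells without one had 13497 CPM in IL-12 and 9627 CPM in control. The intervals of the first and second kind of cell overlapped in the control library only. Cells with such a UMI were 32.4% of the class in IL-12 and 30.7% in control, and were deeper, with medians of 7426 against 6055 UMIs in IL-12 and 6307 against 5463 UMIs in control. Cells with an expanded clone in the authors' receptor column had 13976 CPM in IL-12 and 9294 CPM in control, and the other cells of the class 13326 and 9809 CPM. The order of clonal and other cells was thus opposite in the 2 libraries, and the gap between libraries was larger than either split.

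In CD4-labelled cells, 998 in IL-12 and 179 in control, the sum was 12484 CPM in IL-12 and 10623 CPM in control, a ratio of 1.18 (1.14 to 1.21). Of 41 measured members 9 were higher and 3 lower, beside 15.6% and 16% of 4644 measured genes, with medians of 0.24 for members and -0.02 for all genes. Uqcrb led again, with 149 CPM in IL-12 and 54.3 CPM in control (392 and 27 UMIs, log2 1.44). Atp5o followed with 185 CPM in IL-12 and 84.5 CPM in control (1.12), and Atp5c1 with 239 and 121 CPM (0.98). The lowest were Atp5g1, with 22.1 CPM in IL-12 and 44.3 CPM in control (58 and 22 UMIs, -0.97), Uqcrh-ps1 at -0.91 and Atp5md, with 232 and 406 CPM (-0.81). The control values of these cells rest on few UMIs; the interval of the Uqcrb fold of 2.75 ran from 1.86 to 4.22.

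Macrophages, 1702 cells in IL-12 and 574 in control, had nearly equal sums, 11415 CPM in IL-12 and 11475 CPM in control, and the interval of the ratio, 0.984 to 1.01, held 1. Only 2 of 45 measured members were higher, Uqcrb and Sdhb, and 8 were lower, beside 10.3% higher and 19.5% lower of 6328 measured genes; the member median was -0.00 and that of all genes -0.11. Uqcrb had 174 CPM in IL-12 and 73.3 CPM in control (log2 1.24), Sdhb 123 and 81.3 CPM (0.59), and Atp5c1 218 and 147 CPM (0.57). Atp5g1 had 13.8 CPM in IL-12 and 38.4 CPM in control, 2.79-fold lower (2.21 to 3.52). The pseudogenes Atp5pb-ps at -1.46 and Atp5k-ps2 at -1.36 stood beside it. The other lower members were Atp5md (-0.90), Atp5k (-0.88), Atp5mpl (-0.69) and the pseudogenes Uqcrh-ps1 and Atp5c1-ps. Of the 8, 4 were thus pseudogenes and 4 were subunit genes, the latter among 16 measured of complex V. The count of 8 of 45 is near the 19.5% lower among all measured genes. Complex IV was 1.05-fold higher (1.03 to 1.07) and complex V 1.07-fold lower (1.06 to 1.09) in IL-12 macrophages, and the complex V value was above that of the median gene by 0.01 on the log2 scale. Cluster 6, with 1174 IL-12 and 368 control cells, took 11317 CPM in IL-12 and 11362 CPM in control, and cluster 10, with the complement genes C1qa, C1qb and C1qc among its leading genes, took 12795 and 12193 CPM.

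Neutrophils had the lowest levels in both libraries. Their 5908 IL-12 cells had 4054 CPM and their 2721 control cells 4688 CPM, 1.16-fold lower in IL-12 (1.14 to 1.17). The median of all 3351 measured genes was -0.39, below the log2 ratio of the sum, -0.21, so relative to the median gene the direction turned and the sum stood 0.18 higher in IL-12. Of 34 measured members 1 was higher, Uqcrb, with 27.3 CPM in IL-12 and 12.1 CPM in control (log2 1.11), and 5 were lower, beside 10.9% higher and 39.5% lower of all measured genes. Uqcrb reached 5% of neutrophils in the IL-12 library only, where it was high, so its count as a measured and higher member rests on that library. Next to Uqcrb stood Atp5d, with 106 CPM in IL-12 and 86.3 CPM in control (0.29), and Atp5c1, with 49.5 and 40.9 CPM (0.27). Atp5md had 90.8 CPM in IL-12 and 210 CPM in control, 2.32-fold lower (2.17 to 2.48), Atp5k 33.9 and 65.7 CPM (-0.93) and Atp5h 65.1 and 112 CPM (-0.77).

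The neutrophil clusters differed from each other. Clusters 2 and 3 held most IL-12 neutrophils, with 1914 and 2606 cells, and clusters 1 and 4 most control neutrophils, with 1263 and 552 cells. In cluster 1 the sum was 5682 CPM in IL-12 and 5582 CPM in control, and the interval of the ratio, 0.974 to 1.06, held 1. It was 1.51-fold lower (1.46 to 1.57) in IL-12 in cluster 2, 1.18-fold lower (1.16 to 1.21) in cluster 7 and 1.07-fold higher (1.03 to 1.11) in cluster 14, the cluster led by granule genes such as Camp, Ngp and Ltf. Few cells of 1 library stood behind cluster 3, which was 1.82-fold lower in IL-12 (27 control cells), and cluster 4, which was 2.71-fold higher (26 IL-12 cells). Within the control library cluster 4 stood 2.06-fold below cluster 1. Neutrophils with a cycling UMI had 5567 CPM in IL-12 and 5219 CPM in control, and those without had 3924 and 4651 CPM. The former were few, 366 cells (6.19%) in IL-12 and 150 cells (5.51%) in control. They were also deeper, with medians of 3078 against 2522 UMIs in IL-12 and 3217 against 2500 UMIs in control. The part of depth in this gap was not tested. The T cell markers summed to 90.5 CPM in IL-12 neutrophils and 46.6 CPM in control neutrophils, far below the 4179 and 2786 CPM of CD8-labelled cells.

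Cluster 13, with 267 IL-12 and 95 control cells, took 12084 CPM in IL-12 and 8824 CPM in control, a ratio of 1.37 (1.33 to 1.41), and 16 of 41 measured members were higher and 2 lower, beside 18.5% and 28.5% of all measured genes. Cox6a2, described below, is among the 16. It had a UMI in 30 IL-12 and 2 control cells, so it passed the filter of 5% of cells through the IL-12 library only. The cells of cluster 13 were not of 1 kind: the 5 mast cell markers summed to 4266 CPM in IL-12 and 69.8 CPM in control, with 2 of them at 0 in control, and the 5 B cell markers to 1597 and 1760 CPM. The part of this difference in the result was not tested.

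Set against neutrophils of the same library, CD8-labelled cells took 3.40 times as many of these transcripts per UMI (3.37 to 3.42) in IL-12 and 2.06 times (2.03 to 2.09) in control. CD4-labelled cells stood at 3.08 and 2.27 times, macrophages at 2.82 and 2.45 times, and cluster 13 at 2.98 and 1.88 times. By summed level CD8-labelled cells were highest in IL-12 and macrophages were highest in control. Per cell, the median share of UMIs in the IL-12 library was 1.38% in CD8-labelled cells, 1.23% in CD4-labelled cells, 1.11% in macrophages and 0.353% in neutrophils. In the control library it was 0.824%, 1.05%, 1.04% and 0.438% in the same classes, so per cell CD4-labelled cells and macrophages were close there. Members differed widely in this gap. In IL-12 CD8-labelled cells Atp5g1 stood 11.3 times above neutrophils (8.28 to 15.9), with 42 UMIs in neutrophils, and in control 4.81 times. Uqcrc2, a core protein of complex III, stood 9.29 times above them in IL-12 and 6.55 times in control. Cox8a stood 1.63 and Sdhd 1.60 times above them in IL-12. Cox4i2 lay below neutrophils there, at 0.412 (0.258 to 0.645, from 31 and 61 UMIs), and in control Uqcrq stood at 0.939 (0.861 to 1.02). Complex IV filled more of the neutrophil sum, 51.9% in IL-12 and 48.6% in control, than of the CD8-labelled sum, 40.9% and 40.4%.

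Over the 5 populations that share no cells (CD8-labelled, CD4-labelled, macrophages, neutrophils and cluster 13), 34 members were measured in all 5. Of these, 10 had a log2 ratio above 0 in every population (Uqcrb, Sdhb, Cox5a, Cox7a2, Cox8a, Atp5b, Atp5c1, Atp5d, Atp5g3 and Atp5o), and 4 were below 0 in every population (Sdha, Atp5k, Atp5md and Atp5mpl). Uqcrb counted as measured in neutrophils through the IL-12 library only. Relative to the median of all measured genes 20 stood above it in all 5, and of the 4 only Sdha stood below it in all 5. Of the 2533 genes measured in all 5 populations, 16.2% were above 0 in each, 30.5% below 0 in each, 27.6% above the median in each and 22.7% below it in each. Uqcrb was higher in IL-12 in 13 of 14 clusters, the exception being cluster 2 (18.8 CPM in IL-12 and 23.7 CPM in control, from 83 and 18 UMIs). Sdhb, Atp5b and Cox5a were likewise higher in 13 of 14 clusters, and Atp5md in 1 of 14. Of the 10 clusters with at least 50 cells in both libraries, Uqcrb and Cox5a were higher in 9, Sdhb and Atp5b in 10 and Atp5md in 1. Such cluster counts were not made over all genes. All these populations come from the same 2 libraries, so they do not repeat the comparison.

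**Figure D3:**
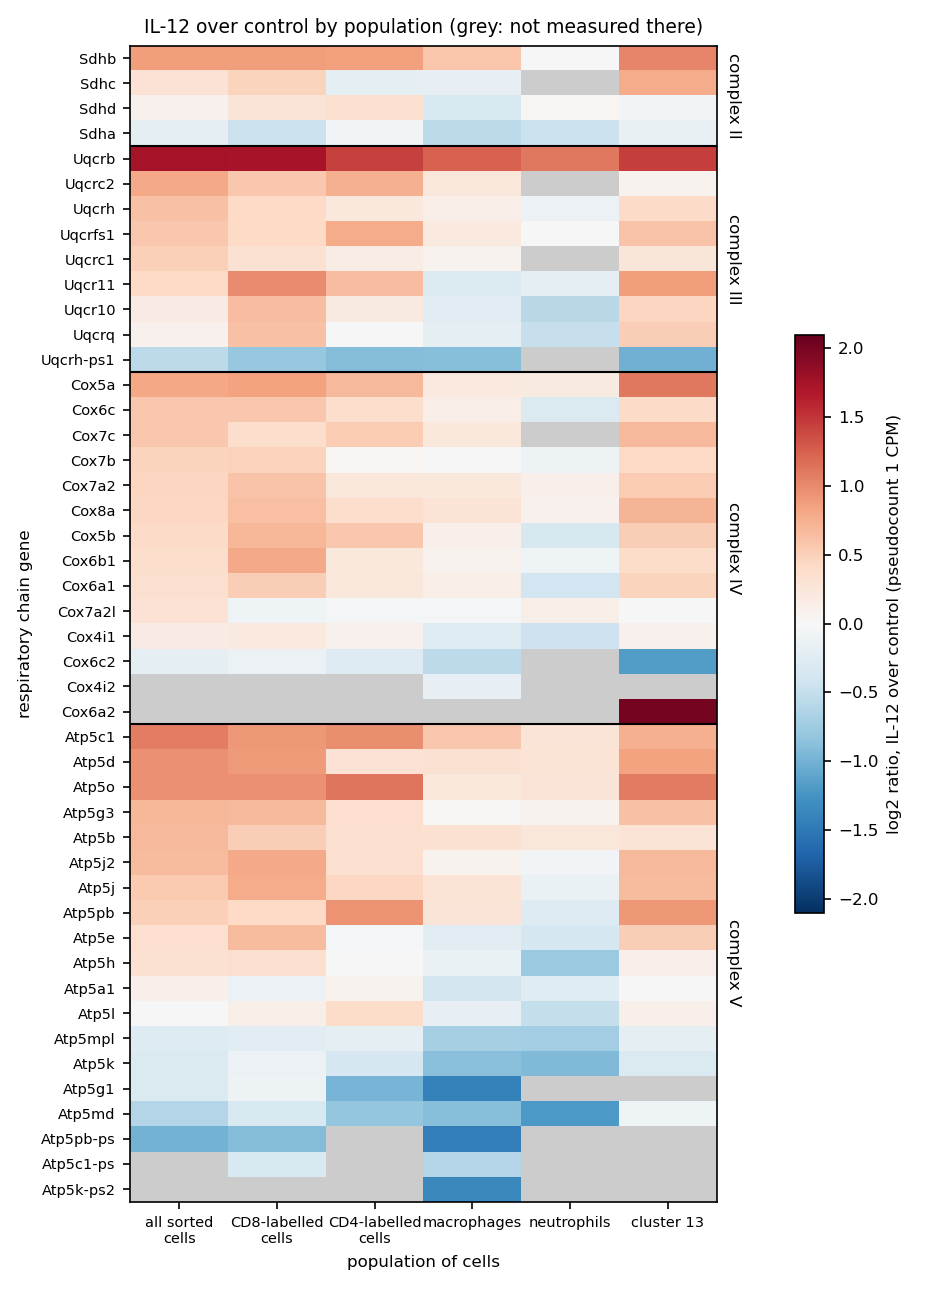
log2 ratio of IL-12 over control with 1 CPM added (colour, red higher in IL-12, blue lower) for members measured in at least 1 population, by complex (blocks) and population (columns); grey cells were not measured there. Uqcrb is red in all columns (1.11 to 1.74), and Atp5md and Atp5k are blue in all columns, though not below the median of all genes in every one. In neutrophils Uqcrb counted as measured through the IL-12 library only.

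Messages of the mitochondrial genome were lower in IL-12. The 9 in the tables encode subunits of complexes I, III and IV. They summed to 6541 CPM in IL-12 and 7871 CPM in control over all sorted cells, 1.20-fold lower (1.20 to 1.21), to 7450 and 9799 CPM in CD8-labelled cells, 1.32-fold lower, and to 7290 and 11888 CPM in macrophages, 1.63-fold lower (1.61 to 1.65). In CD4-labelled cells they were 1.28-fold lower, in cluster 13 1.43-fold lower and in neutrophils 1.19-fold lower; relative to the median of all genes the neutrophil value turned to 0.14 higher on the log2 scale, and in the other populations it stayed below 0. Of 9 messages, 0 were higher by 1.5-fold in any of the 6 populations, and 7 were lower in macrophages, where 19.5% of all measured genes were lower and 10.3% higher. In macrophages mt-Nd3 had 86.0 CPM in IL-12 and 235 CPM in control (log2 -1.44), mt-Nd6 95.1 and 224 CPM (-1.23) and mt-Co1, the catalytic subunit of complex IV, 2820 and 3892 CPM (-0.46). Over all sorted cells the exception was mt-Nd4l, with 659 CPM in IL-12 and 512 CPM in control (0.36). In macrophages 0 of the 9 messages were above 0, and the highest stood at -0.04. Clusters also differed: the messages were 1.61-fold higher in IL-12 in cluster 8 and 1.17-fold higher in cluster 1, against 1.67-fold lower in cluster 6.

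The 2 ribosomal RNAs of the mitochondrion were higher in IL-12. They summed to 7247 CPM in IL-12 and 5720 CPM in control over all sorted cells, 1.27-fold higher (1.26 to 1.28), and to 5993 and 3137 CPM in CD8-labelled cells, 1.91-fold higher (1.88 to 1.95). mt-Rnr2, the large ribosomal RNA, carried most of this, with 5068 CPM in IL-12 and 2445 CPM in control in CD8-labelled cells. For mt-Rnr1 alone the interval of the ratio held 1 in macrophages, 1.03 (0.988 to 1.07), and in CD4-labelled cells, 1.07 (0.979 to 1.17). In cluster 14 the 2 together were lower in IL-12, with 4514 CPM against 6327 CPM in control. The ratio of nuclear to mitochondrial messages for the chain was 1.85 in IL-12 and 0.987 in control in CD8-labelled cells, 1.57 and 0.965 in macrophages, and 1.09 and 1.06 in neutrophils. Clusters did not all follow their class: the ratio was lower in IL-12 in cluster 8 (0.792 in IL-12 and 0.959 in control), cluster 1 (1.09 and 1.252) and cluster 2 (0.886 and 0.975), and higher in the other 11. In macrophages the nuclear sums were nearly equal and the mitochondrial sums were not. The sources used here state no filter of cells on mitochondrial content.

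**Figure D4:**
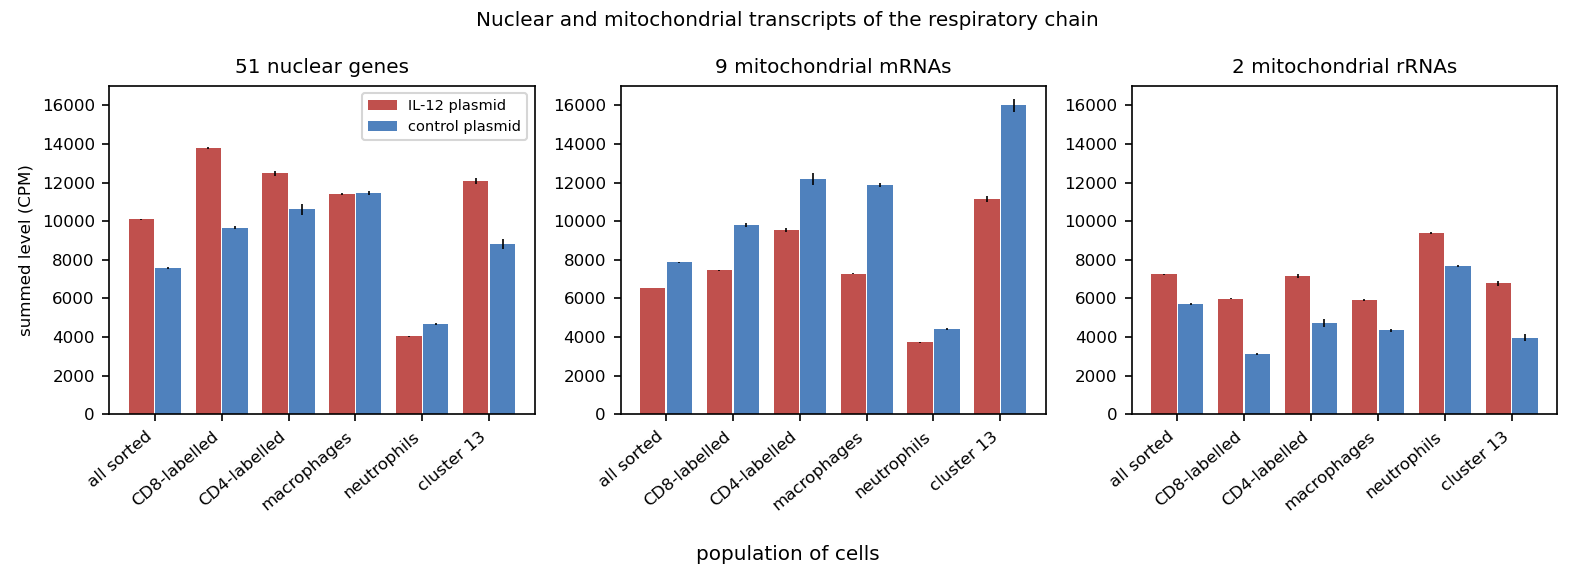
Summed levels in CPM (bars, from 0, with exact 95% intervals) of the 51 nuclear genes, the 9 mitochondrial messages and the 2 mitochondrial ribosomal RNAs, by population, with the IL-12 library left of the control library. Messages of the mitochondrion were lower in IL-12 in each population (above the median gene in neutrophils, by 0.14 on the log2 scale) and its ribosomal RNAs higher, while the nuclear sum was higher, nearly equal or lower by population.

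Several subunits come in versions made from different genes, with some versions known from muscle, lung or testis. Among the immune cells the widely used version dominated. Cox4i1 had 765 CPM in IL-12 and 679 CPM in control, against 4.37 and 4.74 CPM for Cox4i2, a version known for its rise under low oxygen. Cox4i2 was measured in macrophages, with 12.1 CPM in IL-12 and 13.7 CPM in control. Cox6b1 had 338 CPM in IL-12 and 261 CPM in control, against 1.97 and 1.62 CPM for Cox6b2, the testis version. Cox7a2 had 285 and 207 CPM and Cox7a2l, which takes part in joining complexes III and IV, 88.1 and 71.1 CPM, against 2.43 and 3.41 CPM for the muscle version Cox7a1. The membrane ring of ATP synthase is built from a protein encoded by 3 genes that differ in the part cut off on import. Atp5g3 had 424 CPM in IL-12 and 262 CPM in control, Atp5g1 15.5 and 19.4 CPM, and Atp5g2 0.967 and 2.08 CPM. Atp5g3 thus had the highest level of the 3 in both libraries, though 37.3% of the 60-base stretches of Atp5g2 and 8.79% of those of Atp5g1 also occur in another gene, against 0% for Atp5g3, so counts of the first 2 are uncertain. In all sorted cells Atp5g3 passed the fold and Atp5g1 did not.

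Cox6a2, the heart and muscle version of a complex IV subunit, was the member most tied to few cells. It had 463 UMIs in the IL-12 library and 32 in the control library, of which 387 and 30 fell in cluster 13. There 30 of 267 IL-12 cells and 2 of 95 control cells had a Cox6a2 UMI. In a comparison made after these values were seen, the Cox6a2 cells of cluster 13 were nearly the same cells as those with a UMI of Siglech, a receptor of plasmacytoid dendritic cells. Of 30 IL-12 cells with a Siglech UMI 28 had Cox6a2, 93.3% (exact binomial 77.9 to 99.2), against 2 of 237 cells without one, 0.844% (0.102 to 3.01). In the control library both cells with Siglech had Cox6a2, against 0 of 93 cells without it, which allows a share of cells with a UMI of up to 3.23% (3 counts of that total). IL-12 macrophages held 69 Cox6a2 UMIs in 15 of 1702 cells, among them all 7 with Siglech, and control macrophages held 0. Over all IL-12 cells 35 of 47 with Siglech, 74.5% (59.7 to 86.1), had Cox6a2, and these 35 lay in cluster 13 or the macrophages, so the Siglech cells elsewhere had none. In neutrophils, the background for free RNA, 0.034% of IL-12 cells and 0.037% of control cells had a Cox6a2 UMI, at median depths of 2553 and 2524 UMIs against 6307 and 4342 in cluster 13. Cox6a1, the common version, had a UMI in 81.3% of IL-12 and 58.9% of control cells of cluster 13.

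**Figure D5:**
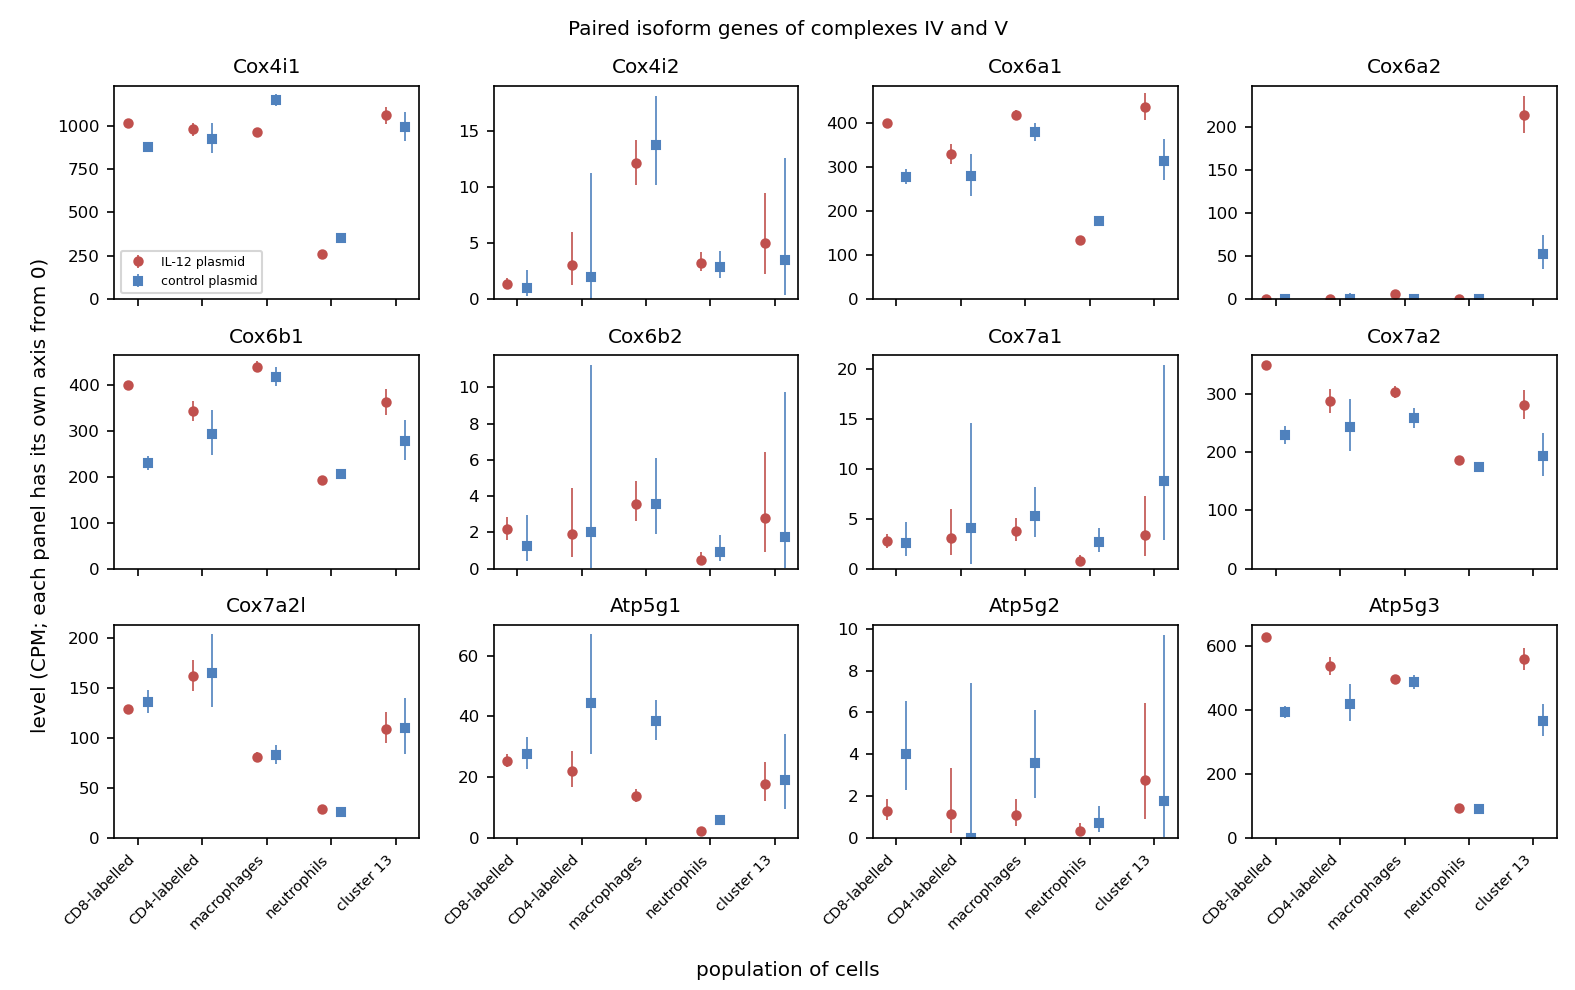
Levels in CPM of the paired isoform genes of complexes IV and V in 5 populations, with the IL-12 library (circles) left of the control library (squares) and exact 95% intervals; each panel has its own axis from 0. Cox6a2 stands out in cluster 13 (214 CPM in IL-12 and 52.3 CPM in control) and Atp5g3 far exceeds Atp5g1 and Atp5g2 throughout.

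Of the 7 pseudogenes 3 were measured in all sorted cells, with 1 lower and 0 higher in IL-12, and 4 in CD8-labelled cells, with 2 lower and 0 higher. In CD8-labelled cells 0 of 4 measured pseudogenes and 32 of 39 measured subunit genes had a log2 ratio above 0, beside 34.8% of all measured genes, so the count of 4 is too small to set the pseudogenes apart. Uqcrh-ps1 had 22.1 CPM in IL-12 and 32.6 CPM in control over all sorted cells, while its parent Uqcrh had 475 and 311 CPM. Cox6c2 shares 221 of 228 coding bases, 96.9%, with its parent Cox6c, and is shown because reads of copy and parent are hard to part. The first 90 coding bases are printed below from the GRCm38 transcripts, Cox6c on chromosome 15 and Cox6c2 on chromosome 12, 5′ to 3′, with the 6 differing bases in capitals.
Cox6c: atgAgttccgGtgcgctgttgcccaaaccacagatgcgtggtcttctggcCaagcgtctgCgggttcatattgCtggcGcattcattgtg
Cox6c2: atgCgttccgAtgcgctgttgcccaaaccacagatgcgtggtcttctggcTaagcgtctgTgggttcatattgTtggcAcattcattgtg
Stretches without a capital cannot tell the genes apart, and 50% of the 60-base stretches of Cox6c2 also occur in another gene. Over 10% of such stretches were shared for 11 of the 51 members, and 26 members shared none.

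The promoters of these genes are known to bind NRF1, the GABP factors of the ETS family and YY1, which act in common on many genes of mitochondria. RefSeq sequences (GRCm38.p6) were matched for 34 members, and the 250 bases before the start were searched on both strands. The NRF1 letters GCGCATGCG stood in 4 of 34, 11.8%, and in 1.97% of 17492 protein-coding promoters. The ETS letters CCGGAAG stood in 8 of 34, 23.5%, and in 9.13% of all, and the YY1 letters AAGATGGC in 0 of 34 and in 1.51% of all. For YY1 letters, so rare among all promoters, a count of 0 of 34 says little, and bases after the start were not searched. A match describes letters, not binding, and no match of one motif overlapped the other in the promoters printed. The promoters with NRF1 letters belong to Atp5g2, Atp5k, Atp5l and Cox6a1, and 3 are printed because their genes had different ratios in all sorted cells: Atp5k -0.30, Atp5l 0.00 and Cox6a1 0.34. Each is on the minus strand, Atp5k at chr5:108434400-108434649, Atp5l at chr9:44920743-44920992 and Cox6a1 at chr5:115348959-115349208, printed 5′ to 3′ with NRF1 and ETS letters of either strand in capitals.
Atp5k: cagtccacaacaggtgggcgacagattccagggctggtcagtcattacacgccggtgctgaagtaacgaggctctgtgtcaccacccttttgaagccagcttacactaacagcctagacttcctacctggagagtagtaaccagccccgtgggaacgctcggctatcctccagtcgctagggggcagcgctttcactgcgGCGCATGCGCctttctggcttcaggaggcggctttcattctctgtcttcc
Atp5l: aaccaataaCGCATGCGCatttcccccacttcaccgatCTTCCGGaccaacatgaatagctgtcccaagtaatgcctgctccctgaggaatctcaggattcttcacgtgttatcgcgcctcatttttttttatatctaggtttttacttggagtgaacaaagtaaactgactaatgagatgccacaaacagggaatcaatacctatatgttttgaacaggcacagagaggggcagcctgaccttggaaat
Cox6a1: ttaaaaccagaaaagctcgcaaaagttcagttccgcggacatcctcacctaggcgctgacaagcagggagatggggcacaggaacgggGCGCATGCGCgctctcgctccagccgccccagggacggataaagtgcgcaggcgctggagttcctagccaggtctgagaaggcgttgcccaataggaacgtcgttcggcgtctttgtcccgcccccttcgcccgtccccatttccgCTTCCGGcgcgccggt
Because these 3 were picked for their different ratios, the spread among them is no result about the letters, whose part was not tested. Atp5l and Cox6a1 hold both motifs.

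Among the genes for such factors the measured ones ran from -1.60 to 0.25 on the log2 scale. Of 10 listed regulators of mitochondrial biogenesis that the tables hold, 5 were measured in all sorted cells, and 2 were lower and 0 higher, beside 23.2% lower and 13.7% higher of all measured genes. Esrra, a nuclear receptor of energy metabolism, had 9.17 CPM in IL-12 and 29.8 CPM in control (log2 -1.60), and Gabpa, the DNA-binding subunit of GABP, 14.9 and 23.5 CPM (-0.62). Nrf1 had 15.3 CPM in IL-12 and 21.7 CPM in control (-0.48), Yy1 98.5 and 121 CPM (-0.30), and Tfam, which packs and transcribes mitochondrial DNA, 14.04 and 11.61 CPM (0.25). Esrra was also lower in CD8-labelled cells (-1.11), macrophages (-1.14) and neutrophils (-1.91).

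Neighbouring steps were mixed. Of 16 measured assembly factors 4 were higher and 2 lower in all sorted cells, beside 13.7% higher and 23.2% lower of all measured genes. Coa6, which helps load copper into complex IV, had 16.2 CPM in IL-12 and 7.11 CPM in control (log2 1.09), and Sdhaf4, an assembly factor of complex II, 16.3 and 8.26 CPM (0.90). Ttc19, which clears fragments from complex III, had 8.14 CPM in IL-12 and 20.8 CPM in control (-1.254), and Pet100, a complex IV factor, 56.9 and 91.6 CPM (-0.68). In the citric acid cycle 4 of 12 measured genes were higher and 1 lower, against the same background. Fumarase, Fh1, which follows complex II in the cycle, had 20.9 CPM in IL-12 and 11.04 CPM in control (0.86), and Dlst, of the oxoglutarate dehydrogenase complex, 25.8 and 43.4 CPM (-0.73). Of 5 measured electron carriers and side entries 0 passed the fold, and Cycs, cytochrome c, had 22.0 CPM in IL-12 and 31.3 CPM in control (-0.49). Among 4 listed subunits outside the name rule 1 was measured, the ATP synthase inhibitor Atpif1, at -0.12. In macrophages 1 of 20 assembly factors was higher and 3 lower, and 0 of 13 cycle genes were higher and 3 lower, beside 10.3% higher and 19.5% lower of all measured genes. The lower counts are near that background.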

How the data were processed

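Single-cell 5′ gene expression was measured in 1 library per treatment. Cell Ranger 2.1.0, STAR 2.6.1, Partek and mm10 are named, without roles, per the submitters' processing notes. The authors deposited log2 values per cell and gene; from the values, they are log2 of counts per 1000000 plus 1. Undoing the log and dividing by a cell's smallest positive value gave whole UMIs within 0.1 for all but 13 of 13883686 IL-12 values and 6 of 4251108 control values, and the cell's total UMIs. Table genes held 70.4% of IL-12 UMIs and 72.9% of control UMIs; CPM use the total. No doublet caller was run and no cell was removed; the sources used here do not say how doublets were handled before deposit. The authors' classes and clusters were used; their table of receptor cells was not used. Clusters were checked by their 10 leading genes (a UMI in at least 10% of cells, pseudocount 10 CPM). Python 3.11.15, NumPy 2.4.6, SciPy 1.17.1 and pandas 2.3.3 were used. Ratios have exact conditional intervals, levels exact Poisson ones, both for counting error only. On simulated counts for all sorted cells, intervals held the true ratio for 95.7% of 8242 genes. These counts were drawn with counting error alone, so the share does not check spread between cells, mice or preparations.

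Members and lists were chosen with earlier results of these data known. Named genes were, per complex, the 2 most abundant members and the highest and lowest ratio in all sorted cells, the 3 highest and 3 lowest ratios in CD8-labelled cells, CD4-labelled cells, macrophages and neutrophils, and all isoform pairs; list genes, mitochondrial genes and clusters were named after their values were seen.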

Additional observations from a re-analysis of the deposited data

Results flagged for a closer look

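The summed level of the members was higher in IL-12 in CD8-labelled cells, with a log2 ratio of 0.51, and lower in neutrophils, with -0.21, so the same contrast had opposite signs in 2 cell classes. The difference between the classes was not tested, since each class has 1 library per treatment. Relative to the median of all measured genes the values were 0.82 in CD8-labelled cells and 0.18 in neutrophils, so on that scale both were above 0. The T cell markers summed to 90.5 CPM in IL-12 neutrophils and 46.6 CPM in control neutrophils.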

How the results depend on the processing

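Of 66 alternative values 27 moved by less than the counting error or stayed within 1.5 times a count, and 39 moved further. In 7 of them, all in macrophages or neutrophils, the log2 ratio of the sum took the other sign. No summed ratio between libraries reached the fold of 1.5, so no called value could reverse. The log2 ratio of the sum in all sorted cells, 0.41, was 0.46 over UMIs of the table genes, 0.60 with median-of-ratios scaling, 0.38 as a mean of per-cell CPM, 0.39 thinned, 0.42 without the 5% deepest cells, 0.43 without the 5 most abundant members and 0.18 with control class shares. In CD8-labelled cells, 0.51, it was 0.88 with median scaling, 0.58 per cell, 0.57 thinned, 0.60 without clusters 11 and 12, 0.41 in cluster 8 and 0.64 for cluster 5 of IL-12 against cluster 8 of control. In macrophages, -0.01, it was -0.067 over table UMIs, 0.077 with median scaling, 0.046 per cell, 0.056 thinned and 0.017 without the deepest cells, so its sign depends on the setting. In neutrophils, -0.21, it was -0.23 over table UMIs, -0.28 per cell, -0.29 thinned, -0.25 without the 5 most abundant members, -0.24 in cluster 7 and 0.19 with median scaling, the other direction; the cause was not tested. The 11 higher members became 21 with median scaling, 25 at a lower fold threshold, 2 at a fold of 2 and 5 with control class shares. The 2 lower ones became 4 without a filter, 1 with median scaling, 0 at a fold of 2, 4 with control class shares and 1 without members that share stretches. CD8-labelled cells over neutrophils, 3.40 in IL-12 and 2.06 in control, were 3.34 and 1.84 thinned and 3.33 and 1.84 per cell; macrophages over neutrophils in control, 2.45, were 2.23 thinned and 2.25 per cell. The alternatives without pseudogenes, without shared barcodes, without members that share stretches and with cluster 5 against cluster 8 were chosen after seeing the data. No paired analysis was possible because each treatment has 1 library. Depth limits the control values of CD4-labelled cells and cluster 13, and pooled mice allow no estimate of the spread between animals.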
